A study of Mus musculus with 4 samples.

Results

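The 10 genes described here belong to the Wnt pathway. Sfrp1, Dkk3, Wif1 and Sostdc1 encode secreted proteins counted among its inhibitors, Lef1, Tcf7, Tcf7l1 and Tcf7l2 encode the 4 Tcf/Lef transcription factors, Axin2 encodes a feedback inhibitor, and Ctnnb1 encodes β-catenin. They were taken by name, and all 10 are among the 32285 genes listed in each of 4 single-cell libraries of mouse epidermis. Their levels were followed across keratinocyte classes, the hair follicle bulge and T cells, and the ablated library of each time point was set against its control library.

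A Wnt ligand binds a Frizzled receptor and an Lrp coreceptor, after which β-catenin is spared by the Axin-containing destruction complex, enters the nucleus and joins a Tcf/Lef factor on target genes. Sfrp1 and Wif1 bind Wnt ligands outside the cell, Sostdc1 binds Lrp coreceptors and also BMP ligands, and Dkk3 is a divergent member of the Dickkopf family. In skin, the resting bulge is known for Tcf7l1, Tcf7l2 and secreted inhibitors, Lef1 marks the lower growing follicle and the dermal papilla, and Tcf7, whose product is Tcf-1, is best known from T cells.

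The study asked what loss of ΔNp63, the main p63 isoform of basal keratinocytes, does to adult epidermis. Control mice were DNp63fl/fl, which carry floxed alleles and no Cre, and experimental mice were DNp63fl/fl;K14-CreT2, in which a tamoxifen-dependent Cre is driven by the keratin 14 promoter of basal cells; they are called ablated below. All mice, controls included, received 200 mg/kg tamoxifen by gavage on 5 days, and epidermal cells were taken 1 day or 1 week after ablation. Ages ran from 2 to 17 months with both sexes in equal shares, and skin was digested in trypsin overnight at 4 °C or for 2 hours at 37 °C; which animals and which digestion went into which library, and how many mice were pooled, are not given in the sources used here.

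Each of the 4 groups is 1 library, which gives no replicates and allows no test, and every interval covers counting error only. A 3′ kit was used for the earlier pair of libraries and a 5′ kit for the later pair, so levels are compared within a time point. Gene UMI totals, where 1 UMI stands for 1 captured RNA molecule, ranged from 68191870 to 179736563 over 18413 to 33552 barcodes per library. The shallowest deposited barcode held 500 UMIs in each control library but 1368 (1-day) and 1059 (1-week) in the ablated ones. The 2 libraries of the 1-day pair shared 299 barcode sequences, those of the 1-week pair 661, and libraries of different time points 9 to 18. Trp63, the p63 gene, had 395 CPM (UMIs of the gene per 1000000 gene UMIs) under control and 113 under ablation in the 1-day pair, and 427 and 140 in the 1-week pair. These counts take in all p63 isoforms and are not limited to the deleted part, so they do not check the deletion itself.

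The members and the other Wnt genes listed below were kept out of the clustering, so a class does not rest on them. Keratinocytes counted 21094 control and 16364 ablated cells after 1 day, and 6940 and 3254 after 1 week. This sum leaves out Krt8-led cells, 6 control and 3851 ablated cells after 1 day and 5 and 352 after 1 week. It also leaves out clusters named neither as keratinocytes nor as another cell type, 158 and 2306 cells after 1 day and 354 and 142 after 1 week. The classes called bulge-like, Pthlh- and Robo2-led, Slc38a4- and Cldn10-led, and Fgf18- and Krt75-led are summed below as the 4-class follicle group, with 4065 control and 2386 ablated cells after 1 day and 862 and 821 after 1 week. In bulge-like cells none of the 15 bulge markers was at 0 in any library, and their summed level ran from 9510 to 13800 CPM; in upper hair follicle-like cells it ran from 1160 to 1520 CPM. Sub-clusters of bulge-like cells held 1 control and 138 ablated cells after 1 day, and 1 and 54 and 5 and 23 cells after 1 week, and summed red blood cell markers in bulge-like cells stood at 2.76 against 145 CPM and at 2330 against 0.981 CPM. The Fgf18- and Krt75-led class is named by its leading genes only, and after 1 week Cfd and Hp led it, with Fgf18 at 333 CPM in control and 376 in ablated cells. Its summed markers of the outer root sheath and inner bulge, 3630 to 6030 CPM over the libraries, lay below its summed bulge markers, 5900 to 8270 CPM. The Pthlh- and Robo2-led class went the other way, with 11900 to 16300 CPM of the first and 6060 to 7940 CPM of the second, as did the Slc38a4- and Cldn10-led class in the control libraries, with 4620 and 3810 CPM after 1 day and 3510 and 2530 CPM after 1 week. The 4-class group is therefore a sum of classes and not 1 cell type. The Fst- and Vsnl1-led class, counted below among the follicle classes, is named by its leading genes only. Its mean standardized marker level was highest for the basal list, 0.52 after 1 day and 0.49 after 1 week. Next came the outer root sheath and inner bulge list at 0.21 and the upper hair follicle list at 0.44. Its place in the follicle is therefore not secure. Basal-like cells numbered 4774 against 454 after 1 day and 1496 against 7 after 1 week, and spinous-like cells 5222 against 975 and 1052 against 6. No ratio could therefore be given for basal-like or spinous-like cells after 1 week. Of 3318 ablated granular-like cells after 1 day, 2456 came from a Sprr2-led cluster that held 2 control cells, so that class rests on different clusters in the 2 libraries.

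The promoter windows that hold the DNA motif bound by Tcf/Lef factors are shown, since Axin2, Lef1 and Tcf7 are themselves commonly used as Wnt targets. RefSeq promoter sequences of build GRCm38.p6 (250 bases before to 50 after each start) were found for 7 of the 10 members, Wif1, Lef1, Tcf7, Tcf7l1, Tcf7l2, Axin2 and Ctnnb1, in 13 windows. They were searched on both strands for the Tcf/Lef core in 4 spellings. The first is CTTTGAA, the second is spelled CTTTGAT, the third has the letters CTTTGTA, and the last reads CTTTGTT (matches on opposite strands can share their last letters). Of the 13 windows 2 held 1, against 16.9% of all 32851 mouse promoters in the table. Both belong to starts inside the gene rather than at its first start: the fourth of Lef1, at chr3:131156044-131156343 on the plus strand, and the second of Tcf7l2, at chr19:55895071-55895370 on the plus strand. They are printed 5′ to 3′ with the match in capitals; in Lef1 the match lies on the minus strand, 147 bases before the start, and so reads as its reverse complement, and in Tcf7l2 it lies 14 bases before the start.
Lef1 start 4: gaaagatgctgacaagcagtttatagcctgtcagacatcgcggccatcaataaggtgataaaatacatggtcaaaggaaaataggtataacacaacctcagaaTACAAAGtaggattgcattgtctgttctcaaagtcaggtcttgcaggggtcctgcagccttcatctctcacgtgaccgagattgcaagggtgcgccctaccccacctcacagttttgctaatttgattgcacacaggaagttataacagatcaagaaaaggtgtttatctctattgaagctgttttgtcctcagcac
Tcf7l2 start 2: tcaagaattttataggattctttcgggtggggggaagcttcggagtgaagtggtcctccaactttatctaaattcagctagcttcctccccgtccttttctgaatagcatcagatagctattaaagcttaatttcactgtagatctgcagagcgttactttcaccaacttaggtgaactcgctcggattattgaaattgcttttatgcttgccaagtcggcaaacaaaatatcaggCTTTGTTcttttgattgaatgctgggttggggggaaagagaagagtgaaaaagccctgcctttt
The window at the start of Axin2, chr11:108920099-108920398 on the plus strand, held none of the 4 spellings. The counts used here are per gene and do not tell these starts apart.

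Sfrp1 was foremost a bulge gene. Over the keratinocyte classes its level was highest in bulge-like cells, at 533 CPM in control and 618 CPM in ablated cells after 1 day, and at 952 and 851 CPM after 1 week. The Fgf18- and Krt75-led class held 280 and 296 CPM after 1 day and 287 and 349 CPM after 1 week. In the Pthlh- and Robo2-led class it stood at 75.5 and 92.9 CPM after 1 day, and at 110 and 127 CPM after 1 week. Outside these 4 classes the level was far lower, with 8.75 to 16.3 CPM over the 4 libraries in Fst- and Vsnl1-led cells and 7.70 to 17.4 CPM in upper hair follicle-like cells. Basal-like cells held an intermediate level, 36.9 CPM (95% interval 33.4 to 40.5) in the 1-week control library. The 4-class group made up 10.2% of keratinocyte UMIs in the 1-day control library and gave 71.3% of its Sfrp1 UMIs.

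Within bulge-like cells the ablated and control levels of Sfrp1 differed little, with log2 ratios of ablated to control (95% counting interval in parentheses) of 0.21 (0.14 to 0.29) after 1 day and -0.16 (-0.26 to -0.07) after 1 week. In the Slc38a4- and Cldn10-led class the Sfrp1 level was 220 CPM in control and 314 CPM in ablated cells after 1 day, and 145 and 534 CPM after 1 week, a log2 ratio of 1.88 (1.63 to 2.14). Counts of classes, here and for other genes, leave out the unclassed keratinocytes. Over the other keratinocyte classes the Sfrp1 ratio was above 0 in 10 of 11 after 1 day, with an interval wholly above 0 in 6. After 1 week it was above 0 in 5 of 8, with 2 intervals above and 2 below 0. The classes of a time point share the same 2 libraries and are not replicates. The share of all genes with such counts was not worked out, here or for the other members. The widest ratio of 1 day, 2.04 (1.15 to 3.11) on 10 and 399 UMIs, was in granular-like cells, whose clusters differ between libraries. Unclassed cells gave -0.09 (-0.35 to 0.18) after 1 day. There all 10 members were below 0 after 1 week, with a median of -1.42 (all genes -0.26). Sebaceous-like cells of 1 day held 10.5 CPM of Sfrp1 in control and 21.4 CPM in ablated cells, 1.03 (0.40 to 1.67). That class took 135 of 580 control and 262 of 530 ablated cells from its Fa2h-led cluster and the others from an Igfbp2-led cluster. The part of that mixture in its ratios was not tested.

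Dkk3 followed Sfrp1 across classes but was still more concentrated in the 4-class group. Bulge-like cells held 206 CPM in control and 189 CPM in ablated cells after 1 day, and 319 and 346 CPM after 1 week, with log2 ratios of -0.12 (-0.25 to 0.00) and 0.12 (-0.04 to 0.28). In upper hair follicle-like cells it was between 1.56 and 2.79 CPM in all 4 libraries. The 4-class group gave 89.8% of keratinocyte Dkk3 UMIs in the 1-day control library and 88.6% in the 1-week ablated library. In the Slc38a4- and Cldn10-led class Dkk3 stood at 151 and 126 CPM after 1 day and at 104 and 222 CPM after 1 week, a log2 ratio of 1.09 (0.76 to 1.42). In the Fgf18- and Krt75-led class it stood at 59.5 and 128 CPM after 1 week, on 22 and 43 UMIs. Among interfollicular cells of 1 day the ablated level was the higher at a low level, with 2.59 and 7.10 CPM in basal-like and 1.11 and 2.52 CPM in spinous-like cells. Sebaceous-like cells of 1 day held 2.20 and 6.86 CPM, 1.64 (0.35 to 3.06), on 8 and 17 UMIs. The Dkk3 ratio was above 0 in 9 of 11 keratinocyte classes after 1 day and in 5 of 6 after 1 week, with an interval wholly above 0 in 3 at each time point.

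Wif1 marked a different part of the follicle. Bulge-like cells held 14.1 and 11.6 CPM after 1 day and 9.29 and 24.5 CPM after 1 week, whereas the Pthlh- and Robo2-led class held 89.2 CPM in control and 91.3 CPM in ablated cells after 1 day, and 61.6 and 89.2 CPM after 1 week. The Slc38a4- and Cldn10-led class held 91.8 and 58.7 CPM after 1 day and 59.4 and 154 CPM after 1 week. After 1 day the interval of its log2 ratio lay below 0, at -0.65 (-1.09 to -0.22), and after 1 week it lay above 0, at 1.37 (0.95 to 1.80). No Wif1 UMI was counted in Fst- and Vsnl1-led cells after 1 week, nor in Fgf18- and Krt75-led cells of 3 of the 4 libraries. The 2 UMIs in the fourth make 4.35 CPM (0.527 to 15.7).

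Cells were then thinned to 1000 UMIs each, which leaves out shallower cells, 39 of 706 control and 0 of 434 ablated cells of the Pthlh- and Robo2-led class after 1 day. After thinning, 9.30% (7.20 to 11.8) of control and 8.29% (5.88 to 11.3) of ablated Pthlh- and Robo2-led cells held a Wif1 UMI after 1 day, against 17.0% and 16.6% before thinning. Upper hair follicle-like cells, at 0.141% and 0.0562% of cells after thinning, give the background. Median depths were 2392.5 and 2303.5 UMIs in the first class and 3982.5 and 3129 UMIs in the second.

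Sostdc1 was spread over more of the keratinocyte classes than the other inhibitors. After 1 day its highest level was in Fgf18- and Krt75-led cells, at 205 CPM (178 to 234) in control and 122 CPM (92.0 to 158) in ablated cells. Bulge-like cells followed with 101 and 107 CPM, and their ablated interval, 96.9 to 117 CPM, lay within that of the Fgf18- and Krt75-led cells. Then came Fst- and Vsnl1-led cells with 79.4 and 59.2 CPM. Their level did not differ from that of Pthlh- and Robo2-led cells, 68.0 and 57.2 CPM, beyond the counting intervals. This order leaves out the unclassed keratinocytes, a sum of clusters that took no name and that differ between the libraries, with 143 CPM in control and 17.0 CPM in ablated cells. After 1 week bulge-like cells held 464 and 369 CPM, Fst- and Vsnl1-led cells 369 and 341 CPM, and Fgf18- and Krt75-led cells 349 and 230 CPM. Basal-like and spinous-like control cells lay between 1.77 and 7.98 CPM at both time points.

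The ablated level of Sostdc1 was below the control level in most keratinocyte classes, though not over all keratinocytes after 1 week. As for Sfrp1, the classes share the same libraries, and the share of all genes with such class counts was not worked out. Over all keratinocytes the log2 ratio of Sostdc1 was -0.43 (-0.51 to -0.34) after 1 day and 0.24 after 1 week. The second ran from -0.61 to 0.60 under the alternatives. After 1 day its log2 ratio was below 0 in 8 of 11 keratinocyte classes, with an interval wholly below 0 in 4 and wholly above 0 in 1, and after 1 week it was below 0 in 8 of 8, with an interval below 0 in 6, by less than the rounding in Fst- and Vsnl1-led cells. Upper hair follicle-like cells went from 30 CPM in control to 16.6 CPM in ablated cells after 1 day, -0.86 (-1.19 to -0.53), and from 46.7 to 32.1 CPM after 1 week, -0.54 (-0.90 to -0.18). Fgf18- and Krt75-led cells gave -0.75 (-1.20 to -0.32) and -0.60 (-1.03 to -0.18). Lower still after 1 week were sebaceous-like cells, at 82.6 and 23.4 CPM, and Slc38a4- and Cldn10-led cells, at 327 and 66.7 CPM, -1.82 (-2.39 to -1.27) and -2.29 (-2.71 to -1.90). After 1 day the Slc38a4- and Cldn10-led class went the other way and was the one with an interval above 0, at 32.7 CPM in control and 52.7 CPM in ablated cells, 0.69 (0.14 to 1.23). Sebaceous-like cells after 1 week took 78 of their 344 ablated cells, and all 126 control cells, from 1 cluster, and the remaining ablated cells from clusters without control cells.

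**Figure D1:**
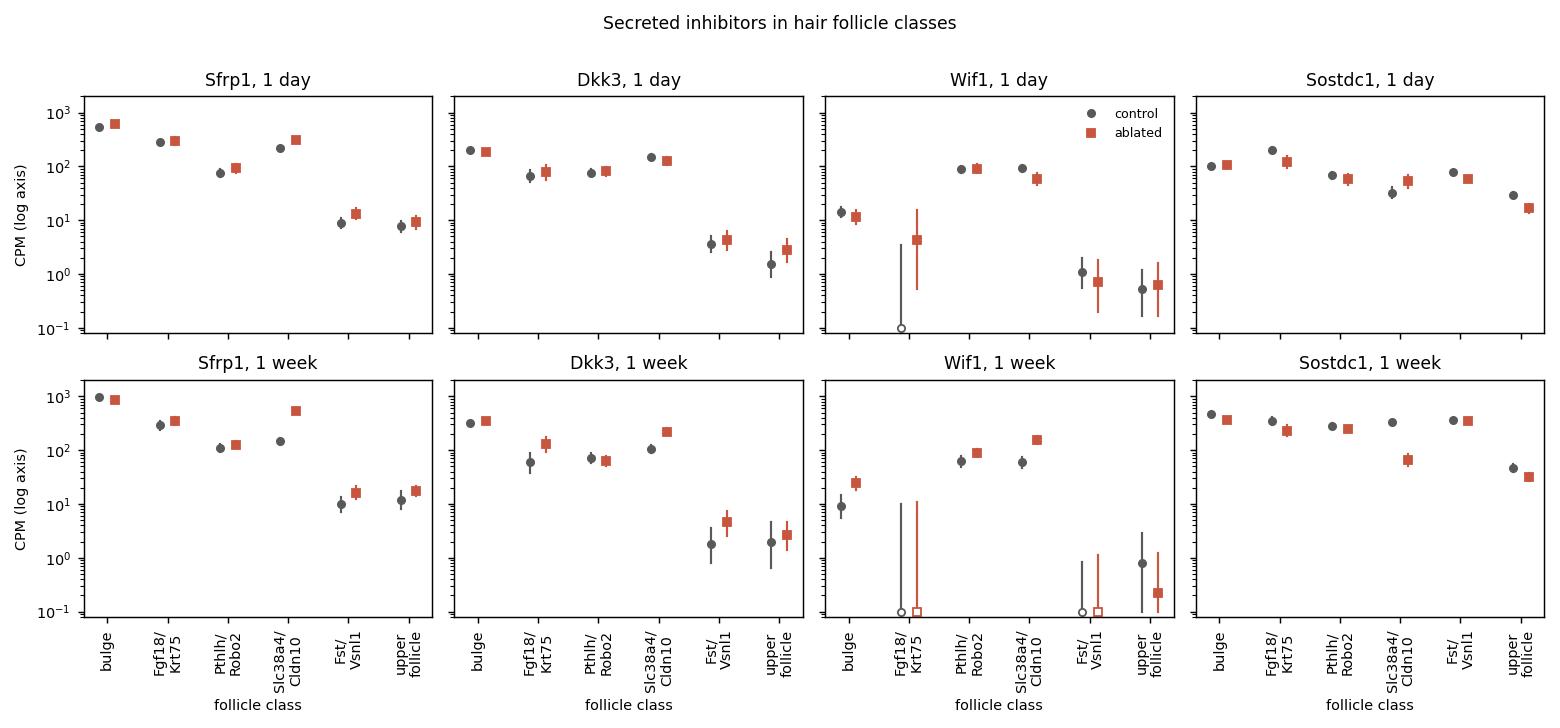
CPM (log axis) of Sfrp1, Dkk3, Wif1 and Sostdc1 in 6 follicle classes after 1 day (upper row) and 1 week (lower row), with circles for the control and squares for the ablated library, bars for the 95% counting interval, and open symbols at the foot of the axis for 0 UMIs. In the Slc38a4- and Cldn10-led class after 1 week the ablated square lies above the control circle for Sfrp1, Dkk3 and Wif1 and below it for Sostdc1 (327 against 66.7 CPM).

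A gene was compared in a class where both libraries held at least 50 of its cells and at least 20 UMIs of the gene together, and past 2-fold means a log2 ratio of at least 1 in size. Among the 6 classes plotted, the Slc38a4- and Cldn10-led class held the widest differences, with 1 member past 2-fold lower and 3 higher of 10 compared after 1 week, against 7.42% and 7.83% of all genes. After 1 day none of its 10 members was past 2-fold in either direction, against 2.23% lower and 2.80% higher. The class is small after 1 week, with 164 control and 156 ablated cells, and its 2 libraries differed in more than these genes. Mki67, a gene of dividing cells, stood at 333 CPM in control and 5.66 CPM in ablated cells, and the summed markers of cycling cells at 1860 and 238 CPM. The summed bulge markers stood at 2530 and 6790 CPM, Postn at 354 and 1210 CPM, Cd34 at 32.5 and 167 CPM, and Shh, a signal of the growing follicle, at 19.5 and 6.79 CPM. The 2 defining genes were alike, with Slc38a4 at 140 and 110 CPM and Cldn10 at 139 and 101 CPM. After 1 day Mki67 was at 9.61 and 7.95 CPM in the same class. Whether the cycling cells take part in the Sfrp1, Dkk3, Wif1 and Sostdc1 differences was not tested.

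Among the transcription factors, Lef1 was low outside 1 of the keratinocyte classes. In the Slc38a4- and Cldn10-led class it stood at 44.7 CPM in control and 28.8 CPM in ablated cells after 1 day, and at 77.3 and 88.2 CPM after 1 week. The log2 ratios were -0.63 (-1.29 to -0.02) and 0.19 (-0.26 to 0.64). Bulge-like cells held 1.90 to 8.34 CPM over the 4 libraries, and basal-like, spinous-like and upper hair follicle-like cells of the 1-day libraries held 0 to 5 UMIs each. After thinning to 1000 UMIs, which left out 12 control and 0 ablated cells of the class after 1 day and 2 and 0 after 1 week, 4.07% (2.70 to 5.87) of control and 2.33% (1.01 to 4.53) of ablated cells of the class held a Lef1 UMI after 1 day, and 9.26% and 6.41% after 1 week. Unthinned, these were 11.6% and 6.98% after 1 day and 33.5% and 28.2% after 1 week, at median depths of 2598, 2290, 5417.5 and 4524 UMIs. In upper hair follicle-like cells, thinned the same way, the shares were 0% (an interval up to 0.174%), 0.0562%, 0% and 0.229%.

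Tcf7l1, which encodes the factor also called Tcf3, was a bulge gene whose level in bulge-like cells differed little between control and ablated libraries. Bulge-like cells held 25 CPM in control and 25.7 CPM in ablated cells after 1 day, and 38.8 and 42.7 CPM after 1 week, with log2 ratios of 0.04 (-0.33 to 0.40) and 0.14 (-0.33 to 0.61). Pthlh- and Robo2-led cells ranged from 18.3 to 30.1 CPM and Slc38a4- and Cldn10-led cells from 28.4 to 47.5 CPM, which overlap the bulge-like intervals. The Fgf18- and Krt75-led class held less in 3 libraries, 10.8 to 12.4 CPM, and 26.9 CPM on 9 UMIs in the 1-week ablated library. In upper hair follicle-like cells it stood at 3.85 and 1.70 CPM after 1 day, -1.18 (-2.30 to -0.18) on 37 and 11 UMIs. After 1 week it stood there at 9.58 and 18.1 CPM, 0.92 (0.24 to 1.64). In that class Krt14 was then at 1610 CPM in control and 5780 CPM in ablated cells, and summed basal markers at 4110 and 8910 CPM. Its Wfdc18-led cluster gave 145 of 308 control and 297 of 437 ablated cells. The part of these in the difference was not tested. In cycling keratinocytes of 1 week Tcf7l1 stood at 5.33 and 13.8 CPM, 1.38 (0.57 to 2.24). It was the only member past 2-fold in upper hair follicle-like cells after 1 day, 1 lower and 0 higher of 8 compared, against 1.34% and 3.08% of all genes.

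Tcf7l2, whose product is also called Tcf4, was found in every keratinocyte class. After 1 day its highest levels were in the classes of the 4-class group. Slc38a4- and Cldn10-led cells, at 136 CPM in control and 152 CPM in ablated cells, then lay above bulge-like cells, within overlapping intervals. Bulge-like cells held 118 CPM in control and 147 CPM in ablated cells after 1 day, a log2 ratio of 0.31 (0.15 to 0.47), and 101 and 107 CPM after 1 week, 0.09 (-0.20 to 0.38). The classes of the 4-class group lay between 76.2 and 152 CPM in all libraries, and basal-like and spinous-like control cells between 13.5 and 30.2 CPM. Over all keratinocytes the level was 43.1 and 43.3 CPM after 1 day and 31.8 and 31.5 CPM after 1 week. The log2 ratio was thus 0.01 (-0.06 to 0.07) and -0.01 (-0.13 to 0.10). Of 11 keratinocyte classes after 1 day, 3 had an interval wholly above 0 and 0 wholly below. Of 8 after 1 week, 0 lay wholly above and 1 wholly below, the Fst- and Vsnl1-led class, with a log2 ratio of -0.76.

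Tcf7 was low in keratinocytes, with the Slc38a4- and Cldn10-led class highest at 28.8 to 44.1 CPM over the libraries. Fst- and Vsnl1-led cells held 20.6 CPM in control and 12.6 CPM in ablated cells after 1 day, -0.71 (-1.12 to -0.31), and 12.7 and 14.8 CPM after 1 week. Over all keratinocytes Tcf7 was lower in the ablated library after 1 day, 9.65 against 6.68 CPM, and higher after 1 week, 8.55 against 10.7 CPM. The log2 ratios were -0.53 (-0.69 to -0.38) and 0.32 (0.12 to 0.53). Basal-like cells, which gave 24.4% of control and 2.82% of ablated Tcf7 UMIs after 1 day, held 12 and 9.03 CPM, a log2 ratio of -0.41 (-1.30 to 0.36).

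Axin2, which is switched on by Wnt signalling in many tissues and dampens it, was below the control level in most keratinocyte classes. Its log2 ratio was below 0 in 8 of 10 classes after 1 day and in 7 of 7 after 1 week, though with an interval wholly below 0 in only 2 and 1 of them. These class counts too have no share of all genes beside them. Fst- and Vsnl1-led cells stood at 9.75 CPM in control and 6.30 CPM in ablated cells after 1 day and 23.0 and 15.1 CPM after 1 week, with log2 ratios of -0.63 (-1.23 to -0.06) and -0.61 (-1.13 to -0.10). Over all keratinocytes it stood at 4.75 and 3.63 CPM after 1 day and at 9.38 and 7.25 CPM after 1 week, -0.39 (-0.60 to -0.17) and -0.37 (-0.60 to -0.15). At a coarser clustering (Leiden resolution 0.5) the 1-week value turned to 0.06. The sebaceous-like class after 1 day gave -2.09 (-4.08 to -0.56) on 25 and 4 UMIs.

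Ctnnb1, which encodes a protein of both Wnt signalling and cell adhesion, was present throughout. Over all keratinocytes it stood at 219 CPM in control and 216 CPM in ablated cells after 1 day and at 259 and 289 CPM after 1 week, -0.02 (-0.05 to 0.01) and 0.16 (0.12 to 0.20). Among keratinocyte classes the Fgf18- and Krt75-led cells held the most, 446 and 611 CPM after 1 day and 652 and 743 CPM after 1 week. Its log2 ratios over the 11 classes of 1 day and the 8 of 1 week stayed between -0.19 and 0.45.

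**Figure D2:**
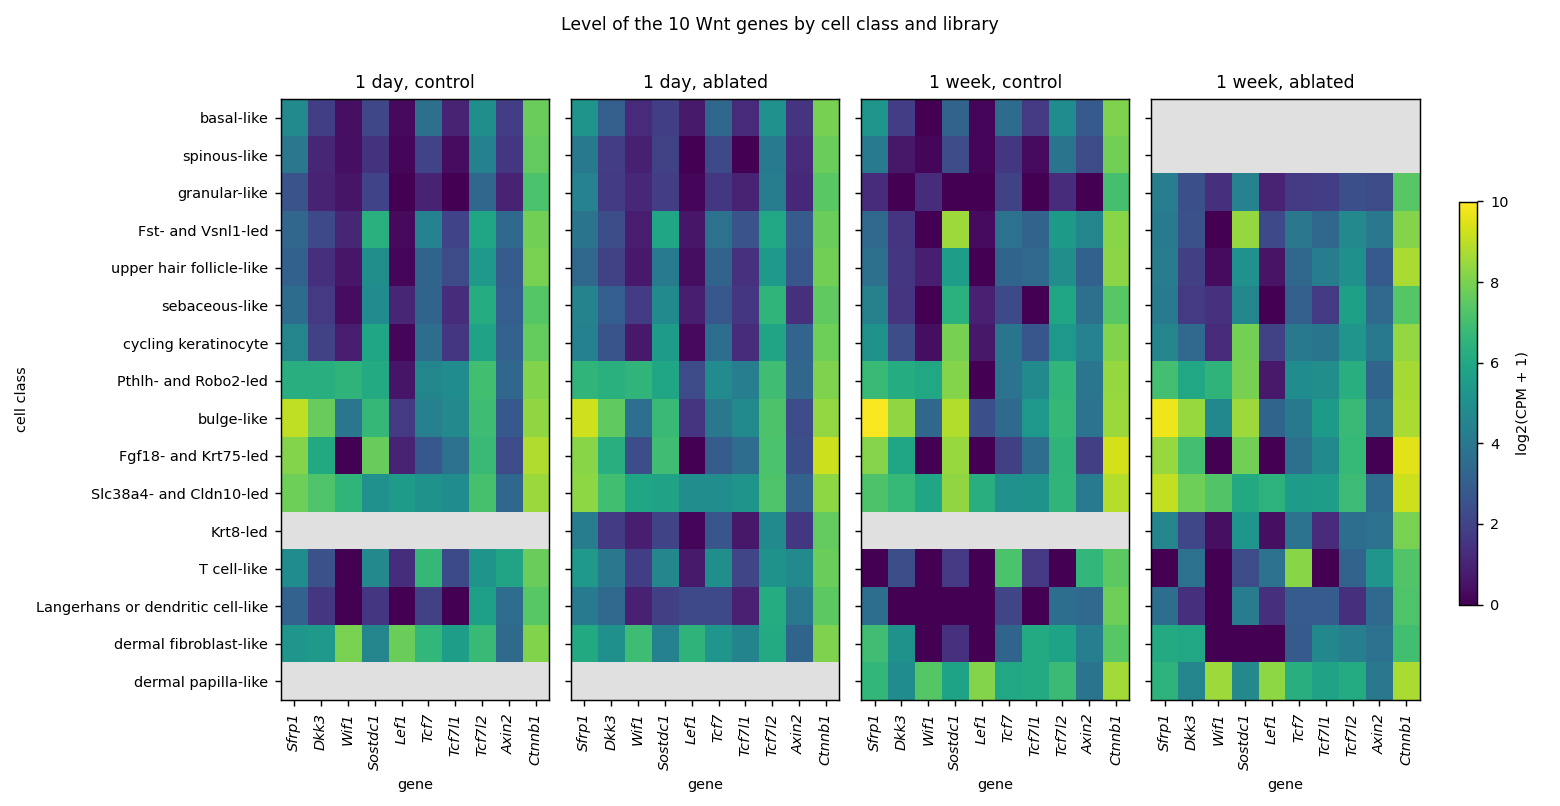
Colour gives log2(CPM + 1) of the 10 genes (columns) in 16 cell classes (rows) in each of the 4 libraries, with grey where a library held fewer than 40 cells of a class. Sfrp1 and Dkk3 are brightest in bulge-like cells (533 and 206 CPM in the 1-day control library), and Axin2 in T cell-like cells (56.8 CPM in the 1-day control library). Lef1 is brightest in the Slc38a4- and Cldn10-led class, the dermal fibroblast-like class of 1 day and the dermal papilla-like class of 1 week.

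Over all keratinocytes after 1 day, 0 of 10 members were past 2-fold lower and 0 higher, against 3.14% and 6.24% of 14792 genes with at least 20 UMIs in both libraries together. The median log2 ratio of the members was -0.18 and that of all genes -0.01. After 1 week 0 were lower and 3 higher, against 6.33% and 10.3% of 14603 genes, with medians of 0.32 and 0.07. The 3 were Wif1, 4.26 against 11.6 CPM (1.45, 1.21 to 1.69), Dkk3, 18.2 against 36.9 CPM (1.02, 0.90 to 1.14), and Tcf7l1, 5.82 against 11.8 CPM (1.02, 0.80 to 1.24). With TMM scaling Dkk3 and Tcf7l1 both stood at 0.95, short of 2-fold, and Wif1 at 1.38.

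The 4-class group made up 8.45% of control and 15.4% of ablated keratinocyte UMIs after 1 week. They gave 70.5% and 90.3% of Wif1 UMIs, 82.0% and 88.6% of Dkk3 UMIs, and 46.2% and 50.0% of Tcf7l1 UMIs, while upper hair follicle-like cells gave 7.50% and 21.4% of Tcf7l1. The part of these shares in the 3 differences was not tested. Within the 4-class group 0 of 10 members were past 2-fold in either direction at either time point, against 1.02% of genes lower and 3.03% higher after 1 day and 4.33% and 3.05% after 1 week. There Wif1 gave 0.94 (0.67 to 1.22), Dkk3 0.27 (0.13 to 0.40) and Tcf7l1 0.26 (-0.06 to 0.58) after 1 week. These 1-week values depend on the clustering: with each library clustered alone Wif1 gave 4.76, Dkk3 1.71 and Tcf7l1 1.03, with 6 members past 2-fold, and without doublet removal Wif1 gave 0.53 and 2 members were past 2-fold. When clusters with at least 90% of their cells in 1 library were left out of all keratinocytes, the values of the 3 genes after 1 week were 0.78, 0.16 and 0.38, and 0 members were past 2-fold. Sostdc1 turned direction in the same setting, from 0.24 to -0.61, while Axin2 moved from -0.37 to -0.74. Single follicle classes held at most 1 such member outside the Slc38a4- and Cldn10-led class. In bulge-like cells it was 0 of 10 after 1 day (1.28% of genes lower and 4.04% higher) and Wif1 alone, higher, after 1 week (3.16% and 4.74%). In Pthlh- and Robo2-led cells it was 0 of 9 (1.88% and 2.06%) and Tcf7, from 13.1 to 28.3 CPM (1.99% and 3.68%). In Fgf18- and Krt75-led cells it was 0 of 5 (3.44% and 2.53%) and Dkk3 (4.25% and 4.76%), and in Fst- and Vsnl1-led cells 0 of 8 (1.25% and 2.86%) and Dkk3, on 8 and 15 UMIs (2.89% and 3.63%). In the upper hair follicle-like class after 1 week 0 of 7 members were past 2-fold, against 2.17% of genes lower and 10.5% higher.

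**Figure D3:**
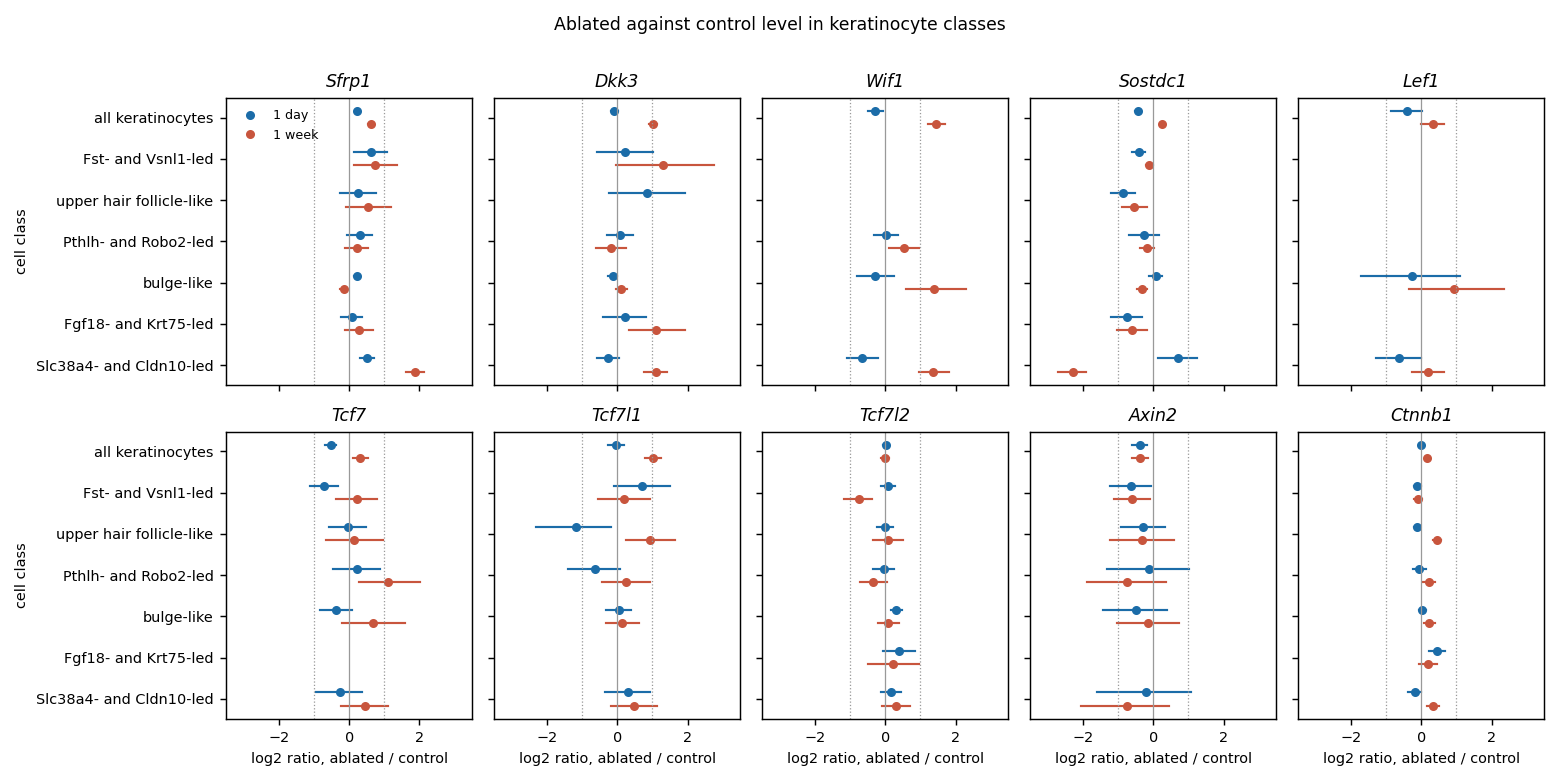
Log2 ratio of the ablated to the control level for each of the 10 genes in all keratinocytes and 6 follicle classes, blue for 1 day and red for 1 week, with bars for the 95% counting interval and dotted lines at 2-fold; combinations with fewer than 20 UMIs are left blank. Most points lie between the dotted lines, and Sfrp1 (1.88) and Sostdc1 (-2.29) in the Slc38a4- and Cldn10-led class after 1 week lie farthest from 0.

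Of the cells found almost only in ablated skin, the 4 groups given here held Sfrp1 far below the bulge-like level. Levels in other such clusters, and in the bulge-like sub-clusters with few control cells, are not given. Interfollicular control cells also lay far below the bulge-like level. After 1 day they held 25.9 CPM of Sfrp1 and 2.59 CPM of Dkk3 in basal-like cells, and 14.7 and 1.11 CPM in spinous-like cells. Krt8-led cells, which are not counted among all keratinocytes, 6 control and 3851 ablated cells after 1 day and 5 and 352 after 1 week, held 17.5 CPM of Sfrp1 and 2.38 CPM of Dkk3 after 1 day, and 22.4 and 3.34 CPM after 1 week. Sostdc1 stood there at 3.15 CPM (2.30 to 4.21) after 1 day and 37.3 CPM (32.6 to 42.5) after 1 week, and Axin2 at 2.10 and 12.5 CPM; these are levels from different kits. The Fabp7-led cluster of 1 day, with 5 control and 3318 ablated cells, held 25.9 CPM of Sfrp1, 2.22 CPM of Sostdc1 and 1.96 CPM of Axin2. The Sprr2-led cluster of 2 control and 2456 ablated cells held 21.4, 1.18 and 1.31 CPM of these. Ctnnb1 was between 178 and 250 CPM in these 4 groups of cells.

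In T cells the members that stood out were Tcf7 and Axin2. T cell-like cells held 99.2 CPM of Tcf7 in control and 30.4 CPM in ablated skin after 1 day, and 144 and 297 CPM after 1 week, with log2 ratios of -1.71 (-2.22 to -1.21) and 1.05 (0.55 to 1.55). The ablated library was thus the lower after 1 day and the higher after 1 week. Axin2 stood at 56.8 and 25.9 CPM after 1 day and at 96.5 and 36.2 CPM after 1 week, -1.13 (-1.72 to -0.56) and -1.42 (-2.63 to -0.37), the last on 45 and 9 UMIs. After 1 day 2 of 7 members compared were past 2-fold lower and 1, Dkk3 on 6 and 23 UMIs, higher, against 13.8% and 11.0% of all genes. After 1 week 1 of 3 was lower and 1 higher, against 5.77% and 5.34%. Lef1, the other Tcf/Lef factor of T cells, had 2 and 1 UMIs after 1 day and 0 and 3 after 1 week.

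The T cell-like cells of the 1-day ablated library held other values that move with these. Their median depth was 2875 UMIs against 1241.5 in control, and the summed T cell markers, with 0 of 15 at 0, stood at 3020 against 11800 CPM. Cd3e, a part of the T cell receptor complex, was at 373 CPM in the Trdc-led cluster of ablated skin and 1390 CPM in control, and Cd3g at 551 and 2880 CPM. The summed keratinocyte markers of that cluster were 30400 CPM in ablated and 15200 CPM in control skin. Counted per 100 Cd3e UMIs, Tcf7 came to 6.78 in control and 7.69 in ablated cells of the Trdc-led cluster, and Axin2 to 5.10 and 7.45. The Icos-led cluster moved the same way, with Cd3e at 302 CPM (245 to 367) in control and 172 CPM (135 to 216) in ablated skin, Cd3g at 908 and 456 CPM, summed keratinocyte markers at 11100 and 26400 CPM, and median depths of 1117 and 2596 UMIs. Per 100 Cd3e UMIs, Tcf7 came there to 38.0 and 20.3 and Axin2 to 5.00 and 12.2. In both clusters the lower Tcf7 level of the ablated library thus stood beside a lower Cd3e level, whose part in it was not tested.

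After 1 week depth and Cd3e differed less. Median depth was 1983 UMIs in control and 1929 in ablated T cell-like cells, and the summed T cell markers were 22300 and 19100 CPM. Summed keratinocyte markers stood at 976 and 1890 CPM in the Trdv4-led cluster and at 8820 and 6450 CPM in the Ccl5-led cluster, and Trdc, a T cell receptor gene, at 1700 and 853 CPM and at 106 and 39.5 CPM; their part in the Tcf7 difference was not tested. In the Trdv4-led cluster, 139 and 72 cells, Cd3e was at 6920 and 5650 CPM, Tcf7 at 174 and 345 CPM (0.99, 0.39 to 1.58) and Axin2 at 126 and 47.4 CPM (-1.41, -2.82 to -0.22). In the Ccl5-led cluster, 77 and 39 cells, Tcf7 was at 94.6 and 227 CPM (1.26, 0.30 to 2.26) and Axin2 at 50.1 and 19.8 CPM on 9 and 2 UMIs. Per 100 Cd3e UMIs, Tcf7 came to 2.52 and 6.11 in the first and to 10.1 and 28.0 in the second of these clusters. Ccr7, a homing receptor of naive and migrating T cells, was at 10.5 and 122 CPM and at 44.5 and 217 CPM.

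After thinning to 1000 UMIs, 9.82% (7.48 to 12.6) of control and 4.04% (2.37 to 6.39) of ablated T cell-like cells held a Tcf7 UMI after 1 day, and 14.1% (9.56 to 19.7) and 28.8% (20.6 to 38.2) after 1 week. Thinning left out 192 of 752 control and 0 of 421 ablated cells after 1 day, and 17 of 216 and 0 of 111 after 1 week. Unthinned shares were 15.6% and 10.5% after 1 day and 23.6% and 45.0% after 1 week. In Langerhans or dendritic cell-like cells, which should lack Tcf7, the thinned shares were 0.526%, 0.215%, 0.909% and 0% (an interval up to 5.21%), at median depths of 2413.5, 2175.5, 3896 and 7439 UMIs.

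**Figure D4:**
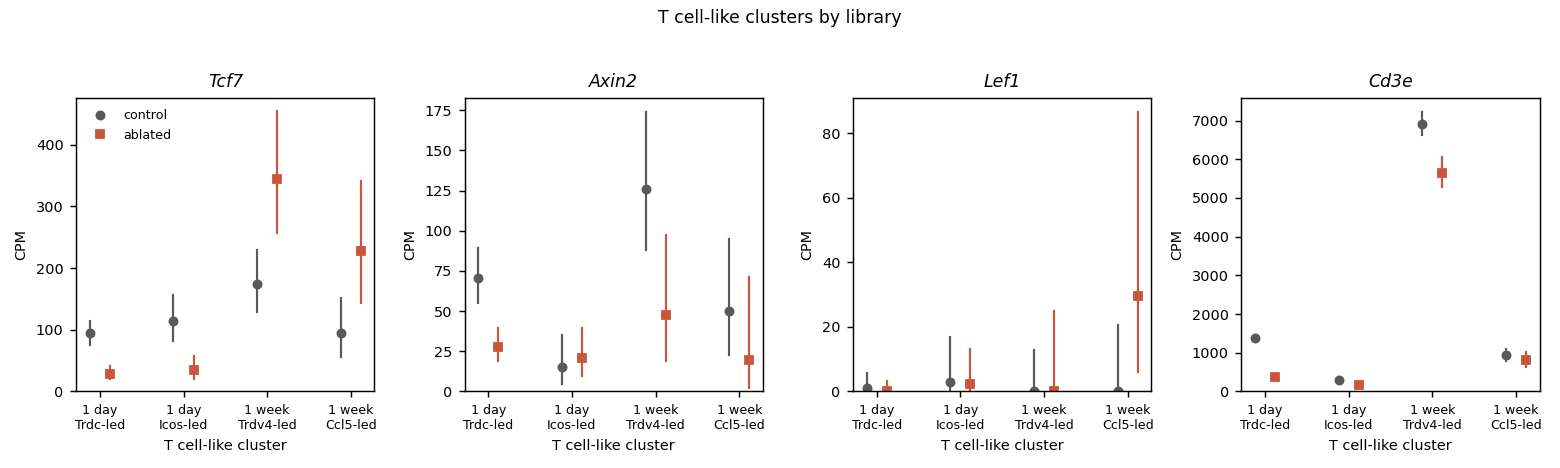
CPM of Tcf7, Axin2, Lef1 and Cd3e in the 2 T cell-like clusters of each time point, with circles for the control and squares for the ablated library and bars for the 95% counting interval. Tcf7 is lower in ablated skin in both clusters of 1 day and higher in both of 1 week, and Cd3e is lower in both clusters of 1 day as well (1390 against 373 CPM in the Trdc-led and 302 against 172 CPM in the Icos-led cluster).

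A dermal class of 1 day and dermal papilla-like cells of 1 week carried Lef1 and Wif1 at levels at or above those of the keratinocyte classes. The 1-day class is the one plotted as dermal fibroblast-like, but the name is not secure: Col3a1, Col1a1 and Dcn were among its 10 leading genes beside Pappa2 and a, which also led the papilla-like cluster of 1 week, and its summed fibroblast markers, 3370 CPM in control and 2650 CPM in ablated cells, lay far below the 43500 CPM of the fibroblast-like control cells of 1 week. It held 214 CPM of Lef1 in control and 89.0 CPM in ablated skin, and 255 and 118 CPM of Wif1. There 4 of 9 members, Wif1, Lef1, Tcf7 and Tcf7l1, were past 2-fold lower and 0 higher, against 13.2% and 10.0% of genes. In the same cells the summed dermal papilla markers, with 0 of 8 at 0, were 2290 CPM in control and 721 CPM in ablated skin, spinous keratinocyte markers 7470 and 20100 CPM, and median depth 1137 and 2943 UMIs; their part in the difference was not tested. Dermal papilla-like cells, which formed a named class only after 1 week, held 281 and 314 CPM of Lef1 and 163 and 374 CPM of Wif1, 0.16 (-0.20 to 0.51) and 1.19 (0.80 to 1.59), while the dermal fibroblast-like cells of 1 week held 0 UMIs of both genes. The papilla-like cells had summed papilla markers of 4960 and 4870 CPM. The other member past 2-fold there was Sostdc1, 55.1 against 25.1 CPM on 29 and 10 UMIs, so that 1 of 9 was lower and 1 higher, against 4.79% and 3.78% of genes.

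Both 1-day libraries also carry counts of 4 antibody hashtags, which split each into 3 sets of cells when the strongest tag, taken over its library median, was at least 2-fold above the next. The labels do not say what a tag marks, so the sets are shown only as a spread within a library. They held 12904 control and 6419 ablated keratinocytes but only 618 and 331 cells of the 4-class group. Over all keratinocytes the 3 control and 3 ablated sets did not overlap for Sostdc1, 21.8 to 33.9 against 16.7 to 20.5 CPM, for Tcf7, 7.96 to 9.63 against 5.44 to 7.08 CPM, and for Tcf7l1, 1.93 to 2.17 against 2.45 to 2.72 CPM. The higher Tcf7l1 level of the ablated sets is not seen over all keratinocytes of 1 day, 3.89 against 3.79 CPM, -0.04 (-0.26 to 0.18). The other 7 members overlapped. The margin was narrow for Axin2, 4.25 to 5.23 against 2.38 to 4.27 CPM, and for Sfrp1, 18.4 to 25.9 against 25.7 to 37.6 CPM. Of all genes 17.4% had ablated sets wholly below and 16.7% wholly above the control sets. In T cell-like cells the sets did not overlap for Tcf7, 71.7 to 133 against 25.3 to 48.7 CPM, Axin2, 51.9 to 58.2 against 24.9 to 39.4 CPM, or Dkk3, 0 to 9.43 against 9.94 to 22.5 CPM. There 19.0% of all genes had ablated sets wholly below and 16.2% wholly above. In upper hair follicle-like cells all 10 members overlapped (7.30% of genes wholly below and 7.86% above), Sostdc1 with 17.2 to 40.4 against 11.7 to 27.1 CPM and Tcf7l1 with 2.49 to 5.42 against 2.59 to 3.49 CPM. In Fst- and Vsnl1-led cells Sostdc1, 75.5 to 84.1 against 29.7 to 62.1 CPM, and Tcf7, 19.9 to 21.6 against 10.5 to 17.7 CPM, were wholly below and Tcf7l1, 1.84 to 3.54 against 3.84 to 6.21 CPM, wholly above (6.77% and 8.50%). In the 4-class group (6.13% and 6.29%) all members but Lef1 overlapped. The same held in its Slc38a4- and Cldn10-led class, on 31 control and 24 ablated cells (5.57% and 5.74%). Lef1 was not among the genes of these shares, because its sets together held fewer than the 20 UMIs that a gene needed. They held 9, 3 and 4 UMIs in control and 2, 0 and 0 in ablated cells of the group. In the class they held 8, 3 and 4 against 2, 0 and 0, so no Lef1 difference is read from the sets.

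Other genes of the pathway were read from 6 lists over all keratinocytes, where 3.14% of all genes were past 2-fold lower and 6.24% higher after 1 day, and 6.33% and 10.3% after 1 week. Of 15 listed secreted or membrane inhibitors beyond the members, 8 could be compared, with 0 lower and 1 higher past 2-fold after 1 day and 2 lower and 1 higher after 1 week. Of the feedback and destruction complex genes, 18 could be compared, with 0 lower and 0 higher after 1 day and 0 and 2 after 1 week. Of the receptors and transducers 15 could be compared, with 0 lower and 1 higher, then 1 lower and 2 higher. Of 16 nuclear cofactors none was past 2-fold after 1 day, and after 1 week 1 was lower and 2 higher. Of commonly used Wnt targets 1 of 17 was lower and 3 higher after 1 day, and 4 of 18 lower and 1 higher after 1 week. Of 5 adherens junction partners of β-catenin 1 was lower after 1 day and 0 after 1 week. The list medians lay between -0.10 and 0.18 after 1 day and between -0.37 and 0.18 after 1 week, beside -0.01 and 0.07 for all genes.

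From these lists 3 genes were past 2-fold in the same direction at both time points. The share of all genes that do so at both time points was not worked out, so this count has no background beside it. The 3 genes were read over all keratinocytes, whose mix of classes differs between the libraries. Basal-like cells, for example, numbered 4774 against 454 after 1 day and 1496 against 7 after 1 week. The part of that mix in the 3 differences was not tested. Wnt10b, a ligand, was lower, 1.14 against 0.377 CPM after 1 day and 4.24 against 0.996 CPM after 1 week, with log2 ratios of -1.60 and -2.09. Sp6, a transcription factor of hair and tooth epithelium, was higher, 5.84 against 11.7 CPM and 10.2 against 24.0 CPM. Its 1-day ratio lay at the limit (interval 0.85 to 1.15) and was 0.98 with TMM scaling and 0.90 with totals without mitochondrial and ribosomal protein genes, and its 1-week ratio was 1.24 (1.08 to 1.40). Rspo1, a ligand that strengthens Wnt signalling, was higher on few UMIs, 3 against 23 after 1 day, a log2 ratio of 3.53 (1.81 to 5.91), and 25 against 46 after 1 week, 1.66 (0.92 to 2.42). It was among the leading genes of a bulge-like sub-cluster of 1 week with 1 control and 54 ablated cells, whose part was not tested.

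The pattern of each member over classes was compared with that of 9416 genes, by Pearson's r of log2(CPM + 1) over 33 sums of a class in a library after 1 day and 32 after 1 week. These sums share libraries and depth, so r is a description. Dkk3 was most like Fzd2, a Frizzled receptor, with r of 0.94 after 1 day and 0.92 after 1 week, and like Gli2, 0.91 and 0.91. Fzd2 also came second for Sfrp1, at 0.89 and 0.87, after Ltbp2, at 0.87 and 0.89. Wif1 was most like Gli2, 0.89 and 0.78, and Lef1 was most like Wif1 itself, 0.81 and 0.74. Tcf7l1 was most like Fgfr1, 0.94 and 0.89, and Timp2, and Tcf7l2 like Boc, 0.92 and 0.88, and Mir99ahg. Sostdc1 was most like C1qtnf12, 0.89 and 0.87, and the receptor gene Lgr4, 0.85 and 0.86. The nearest genes of Axin2, Josd1 (0.73 and 0.70) and Rbm14, were the least alike of all members. Those of Tcf7 were Csnk1g3 and Phc3, at 0.83 and 0.83 each, and those of Ctnnb1 were Slc25a27 and Thsd1, at 0.80 to 0.87.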

How the data were processed

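Single-cell RNA sequencing was made of mouse epidermis in 4 libraries, 1 per group. Per the values, the deposited tables are raw UMI counts (whole numbers, 1 per gene and barcode); Cell Ranger 5.0.1, Seurat and build mm10 are named in the submitters' processing notes. Gene IDs matched GENCODE M21 for 32158 of 32285 genes.

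Barcodes needed 500 UMIs, 300 genes and no more than 15% mitochondrial UMIs, and the highest Scrublet scores were removed at 0.8% per 1000 barcodes, leaving 23047 control and 23741 ablated cells (1 day) and 19915 and 15639 (1 week). At 1 week 58.4% and 72.3% of these, with under 3000 UMIs and a profile near that of the shallowest 10%, were set aside as free-RNA-like, leaving 8284 and 4326; at 1 day the same limits marked 27.5% and 38.5%, which were kept. Each pair of libraries was clustered as 1 set (scanpy 1.11.5, Leiden resolution 1, 2000 variable genes, 30 components, 15 neighbours), without the members and listed Wnt genes. Clusters were named from marker lists, or by leading genes where no name held.

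UMIs were summed per class and library and given as CPM with exact Poisson 95% intervals, ratios with exact conditional binomial intervals, and shares of cells with Clopper-Pearson intervals. A ratio needed 20 UMIs in both libraries together and 50 cells in each. "Past 2-fold" is a log2 ratio of at least 1 either way. With 1 library per group no test was made. Members and lists were chosen with earlier results of these data known, and the naming limits, 4-class follicle group, free-RNA limit and hashtag sets were set after the data were seen. All 10 members are named; other Wnt genes are named if past 2-fold the same way at both time points in all keratinocytes; for likeness, the 2 genes with the highest smaller r of the time points, among genes with 500 UMIs, are named. On simulated counts for all keratinocytes (32285 genes, 200 of them changed) the intervals held the true ratio in 97.5% of the 200 changed genes at 1 day and 97.0% at 1 week. The simulation held counting error only, so it says nothing of differences between libraries or in class mix. Alternatives, with TMM factors from edgeR 4.0.16 on the deposited counts among them, are given in the closing section.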

Additional observations from a re-analysis of the deposited data

Results flagged for a closer look

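Tcf7 in T cell-like cells differed in opposite directions at the 2 time points, with a log2 ratio of -1.71 at 1 day and 1.05 at 1 week. The difference between the time points was not tested, and the time points also differ in kit. At 1 day Cd3e was lower in the ablated library too, 1390 against 373 CPM in the Trdc-led and 302 against 172 CPM in the Icos-led cluster. Per 100 Cd3e UMIs, Tcf7 came to 6.78 in control and 7.69 in ablated cells of the Trdc-led cluster. In the Icos-led cluster it came to 38.0 and 20.3. The part of the lower Cd3e level in the 1-day value was not tested. The 1-day libraries hold antibody hashtag counts, used here only to split each library into sets of cells; their totals enter no comparison. In the control library hashtag 1 totalled 4754603 counts, hashtag 2 5942938 and hashtag 3 5686907. In the ablated library they totalled 3097281, 6137708 and 3056647. The hashtag numbered 4 totalled 2256 and 1425 counts and had a median of 0 per barcode in both.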

How the results depend on the processing

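No paired analysis was possible because each group is 1 library, and for the same reason no library could be left out. The number of members past 2-fold in either direction over all keratinocytes at 1 week, 3, was 1 with TMM scaling, with totals without mitochondrial and ribosomal protein genes, without doublet removal, at Leiden resolution 2, with each library clustered alone, with all cells unclustered, and with low-UMI and Krt8-led or only Krt8-led clusters counted as keratinocytes, and 0 without clusters of 1 library. In the 4-class follicle group the number, 0, was 1 at 1 day with each library clustered alone; at 1 week it was 1 with the mean CPM per cell or at least 3000 UMIs per barcode, 2 without doublet removal and 6 with each library clustered alone. In upper hair follicle-like cells the number at 1 day, 1, was 2 without a UMI minimum per gene or with the mean CPM per cell and 0 with at least 100 UMIs; at 1 week, 0, it was 1 without doublet removal, 4 at resolution 2, and 2 without a UMI minimum, with each library clustered alone or with free-RNA-like barcodes included. The other 65 counts moved by no more than 1.5 times. Single values were ratios or, for all keratinocytes, differences in the share of cells with a UMI. Of these, 734 stayed within the counting interval of a ratio or moved by no more than the interval width of a share, and 157 moved further. The 59 ratios tried were those of all keratinocytes, the 4-class follicle group and upper hair follicle-like cells. Only 4 of them were past 2-fold with 20 UMIs in the values reported. Under at least 1 alternative 28 of the 59 changed sign, and none of the 4 did. The widest turn was Lef1 in the 4-class follicle group at 1 day, from -0.66 to 1.95 with each library clustered alone. Ratios of other classes were tried under no alternative, those of the Slc38a4- and Cldn10-led, sebaceous-like, dermal and T cell-like cells among them. TMM shifted all upper hair follicle ratios at 1 week by -0.14. Leaving out clusters of 1 library, including free-RNA-like barcodes and counting only Krt8-led clusters were chosen after seeing the data. Members with under 20 UMIs in both libraries together, such as Lef1 in most keratinocyte classes, were not called.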
